A study of Homo sapiens with 10 samples.

Results

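The genes described here encode vimentin, the actin and myosin cytoskeleton and targets of the transcription regulators SRF and YAP. The 40 members were taken by symbol from the 22003 features of the count table, and 36 of them had counts high enough to be tested among 14799 tested features. They were listed with earlier results of these data in view: VIM, MYL9, NEXN and FILIP1L are among the features with the lowest fold changes in irradiated LBP cells against irradiated vehicle cells. TLN2 and VIM also ranked 7 and 9 from the lowest fold change in LBP cells against vehicle cells. That ranking held 36 features, whereas 39 were called lower. Values that may have chosen a gene are therefore given as a description, without a p-value.

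RNA was sequenced from HaCaT cells, an immortalised human keratinocyte line labelled wild type. The irradiated LBP group (n = 3) was pretreated with Lycium barbarum polysaccharide-glycoprotein (LBP), a plant extract, and then received 12 Gy of radiation. The irradiated vehicle group (n = 3) had vehicle before 12 Gy, the LBP group (n = 2) had LBP without radiation, and the vehicle group (n = 2) had vehicle alone. Pretreatment lasted 24 h and RNA was taken 3 h after irradiation. All groups are 1 cell line, the LBP dose is not given in the sources used here, and the labels call the libraries of a group repeated experiments without saying whether each came from a separate culture. The spread that p-values are set against may therefore be technical.

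Libraries held 31830506 to 62986831 counts. Levels are given as CPM, counts scaled to library size with TMM factors, and as FPKM, which also divides by gene length, where genes are compared with each other. The labels name the tissue as mucosa. Keratinocyte markers were abundant, with all 8 tested and a summed level of 12263 to 12760 CPM in irradiated LBP, 10972 to 12544 CPM in irradiated vehicle, 13292 to 13755 CPM in LBP and 11658 to 12085 CPM in vehicle libraries. KRT5 and KRT14, keratins of basal keratinocytes, reached 2759 to 3526 and 2902 to 4111 CPM. The fibroblast marker DCN, the smooth muscle marker DES, the endothelial marker PECAM1 and the melanocyte marker TYR had no count in any library. Other markers of the same cell types were detected. COL1A1 (fibroblast) had 3.77 to 5.74 CPM and SMTN (smooth muscle) 14.5 to 24.5 CPM. CDH5 (endothelial) had 1.05 to 2.75 CPM, PMEL (melanocyte) 0.50 to 1.09 CPM and CD14 (leukocyte) 0.66 to 1.55 CPM.

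Vimentin forms the intermediate filaments of mesenchymal cells, while actin filaments crosslinked and pulled by myosin give a cell its tension. SRF, with the actin-sensing coactivators of the MRTF family, binds the CArG box in promoters of cytoskeletal genes. YAP acts through TEAD proteins and responds to cell spreading and tension, and the Hippo kinases hold it out of the nucleus.

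Promoter windows of 250 bases before to 50 bases after each start, from RefSeq on GRCh38.p14, were found for 35 of the 40 members, as 63 windows. The CArG box (CC, then 6 bases of A or T, then GG) was in 11 of the 63 windows (17.5%), from 9 genes, and in 1.29% of all 35116 windows in the table. The TEAD motif CATTCC, searched on both strands (GGAATG on the other), was in 18 windows (28.6%) of members and in 14.0% of all windows. The AP-1 motif TGANTCA, which reads the same on both strands, was in 6 windows (9.52%) of members and in 7.71% of all windows. The list includes known SRF and YAP targets, so these shares describe it. The 4 windows shown belong to genes that edgeR called lower with LBP in at least 1 radiation state, with each searched motif in capitals. FILIP1L, NEXN and TAGLN2 were called only in irradiated cells.
FILIP1L, chr3:99876124-99876423, minus strand: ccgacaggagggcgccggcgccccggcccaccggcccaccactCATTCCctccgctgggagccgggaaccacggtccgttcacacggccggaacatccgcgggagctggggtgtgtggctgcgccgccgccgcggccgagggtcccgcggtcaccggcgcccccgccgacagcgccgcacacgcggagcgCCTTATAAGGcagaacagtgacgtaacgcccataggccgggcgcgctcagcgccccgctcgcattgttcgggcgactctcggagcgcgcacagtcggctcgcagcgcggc
CNN3, chr1:94925720-94926019, minus strand: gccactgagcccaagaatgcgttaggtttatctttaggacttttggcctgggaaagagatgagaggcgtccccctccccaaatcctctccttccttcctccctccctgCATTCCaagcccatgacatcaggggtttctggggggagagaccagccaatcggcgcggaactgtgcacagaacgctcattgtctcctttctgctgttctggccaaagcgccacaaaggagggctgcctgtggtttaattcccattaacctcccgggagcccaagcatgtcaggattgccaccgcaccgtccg
NEXN, chr1:77888374-77888673, plus strand: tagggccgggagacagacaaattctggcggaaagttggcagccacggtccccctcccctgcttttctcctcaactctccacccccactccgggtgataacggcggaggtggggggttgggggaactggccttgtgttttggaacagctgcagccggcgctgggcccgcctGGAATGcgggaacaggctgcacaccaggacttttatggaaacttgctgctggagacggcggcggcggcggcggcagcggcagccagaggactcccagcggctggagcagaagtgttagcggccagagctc
TAGLN2, chr1:159925458-159925757, minus strand: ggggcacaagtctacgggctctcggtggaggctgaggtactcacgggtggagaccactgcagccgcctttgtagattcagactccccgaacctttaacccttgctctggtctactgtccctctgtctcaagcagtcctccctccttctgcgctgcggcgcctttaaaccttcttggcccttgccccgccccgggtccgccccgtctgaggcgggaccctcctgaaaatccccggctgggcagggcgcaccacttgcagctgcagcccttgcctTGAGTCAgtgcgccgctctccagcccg
The FILIP1L window shown held the CArG box CCTTATAAGG 60 bases before its start and CATTCC 207 bases before it. In the other windows shown, CATTCC lay 142 bases before the CNN3 start and GGAATG 80 bases before the NEXN start. TGAGTCA lay 24 bases after the TAGLN2 start. FILIP1L, CNN3 and TAGLN2 have further windows, not shown. Those of FILIP1L and CNN3 held no searched motif, and 1 of TAGLN2 held TGACTCA 49 bases before its start. Of the 7 genes with a window that were called lower with LBP in at least 1 radiation state, 1 (FILIP1L) had a CArG box. Among the 11 windows of these genes, the CArG box was in 1 (9.09%), CATTCC in 3 (27.3%) and TGANTCA in 2 (18.2%). With so few windows these shares are a description. Windows of ACTG2, ACTN1, CNN2, FHL2, FLNA, MYLK, SRF and TPM4 had at least 1 CArG box.

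Levels spanned a wide range within the list. Mean FPKM over the 10 libraries was at least 100 for 9 members, between 10 and 100 for 14, between 1 and 10 for 11 and under 1 for 6. The most abundant were TAGLN2 (413 ± 36.5 FPKM), an actin-binding calponin relative, TPM4 (277 ± 24.1 FPKM), a tropomyosin that coats actin filaments, MYH9 (259 ± 11.4 FPKM), the nonmuscle myosin heavy chain, FLNA (258 ± 17.7 FPKM), an actin crosslinker, and TGFBI (249 ± 23.0 FPKM), a secreted matrix protein induced by TGF-beta (SD, n = 10 libraries each). These 5 are cytoskeletal or matrix genes of many cell types. VIM, at 6.24 FPKM, was above 53.1% of tested features, far below these genes. ACTG2 was low, with 0 to 19 counts per library. ZEB1, CNN1, LMOD1 and FLNC, with at most 12 counts in any library, were not tested; a level below the limit of 3 counts, 0.0478 to 0.0925 CPM by library, was not detectable at this depth.

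**Figure D1:**
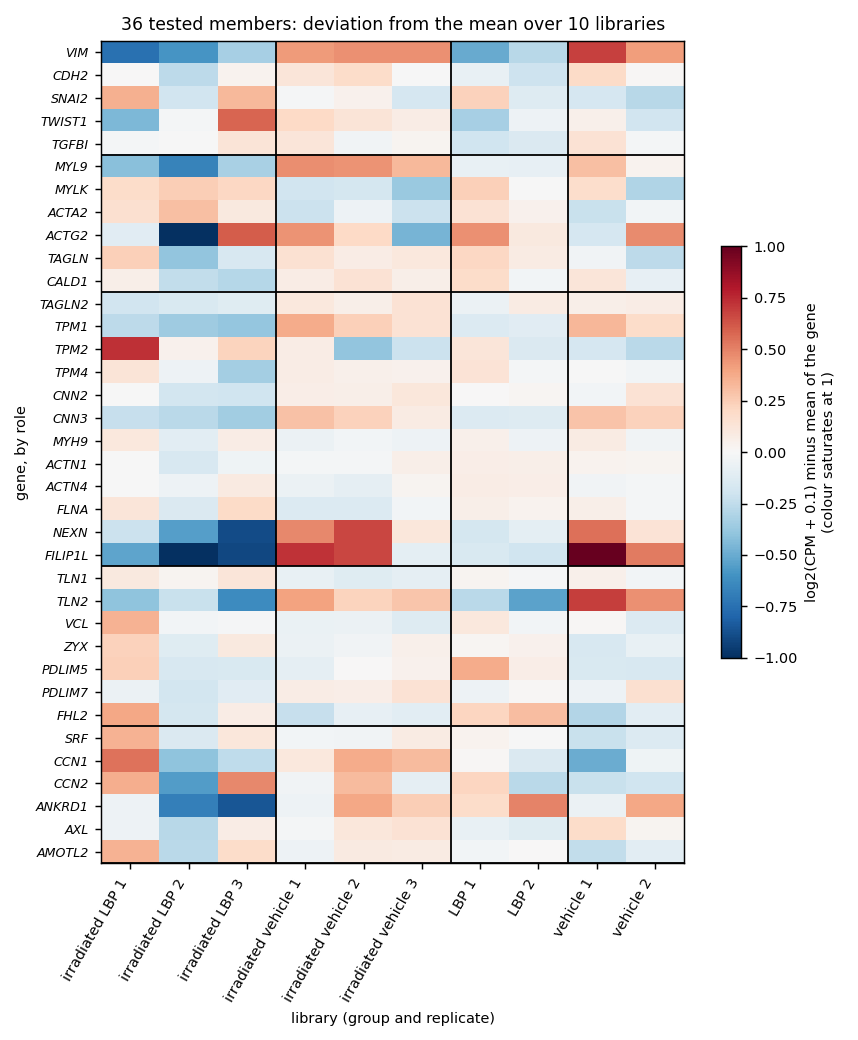
Deviation of each tested member from its mean over the 10 libraries, on the log2(CPM + 0.1) scale, with genes in rows by role and libraries in columns (3 irradiated LBP, 3 irradiated vehicle, 2 LBP, 2 vehicle). VIM, TLN2, FILIP1L, CNN3 and TPM1 are low in both LBP groups, whereas most SRF and YAP targets show no such block.

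In non-irradiated cells, LBP was set against vehicle. VIM and TLN2, a talin that links integrins to actin, were lower in both LBP libraries, and CNN3, an actin-binding calponin, fell by 0.39 on the log2 scale. EdgeR called 3 of 36 members lower (VIM, CNN3 and TLN2) and none higher at an adjusted p under 0.05, against 0.264% of all tested features lower and 0.541% higher. Since VIM and TLN2 may have been chosen on this comparison, the count is a description. Without vehicle replicate 1 no member was called, and 1 was called without vehicle replicate 2 (VIM), LBP replicate 1 (TLN2) or LBP replicate 2 (VIM). An unadjusted p under 0.05 was found for 9 of the 36 members (25.0%) and for 13.5% of all tested features. The share of members includes VIM and TLN2, so it too is a description. The median log2 fold change was 0.05 over the tested members and 0.01 over all tested features.

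VIM had 8.85 and 10.3 CPM in LBP libraries, against 20.3 and 16.8 CPM in vehicle libraries. The groups did not overlap, with a log2 fold change of -0.95 ± 0.14 (SE; 95% interval -1.26 to -0.63), which is 1.93-fold lower with LBP. The other mesenchymal genes were SNAI2 and TWIST1, transcription factors of the epithelial to mesenchymal transition, CDH2, the N-cadherin gene, and TGFBI. In the same test TGFBI differed by -0.23 ± 0.09 (adjusted p = 0.27), CDH2 by -0.25 ± 0.11 (adjusted p = 0.35), SNAI2 by 0.29 ± 0.17 (adjusted p = 0.48) and TWIST1 by -0.12 ± 0.31 (adjusted p = 0.90). None of these 4 passed the edgeR threshold. In bulk RNA, fewer cells of a type and less RNA per cell cannot be told apart. The 7 smooth muscle markers, of which 5 were tested, summed to 21.8 to 24.2 CPM in LBP and 27.8 to 30.8 CPM in vehicle libraries, and to 20.7 to 26.1 CPM in irradiated LBP and 25.5 to 26.6 CPM in irradiated vehicle libraries, with DES at 0. The 9 fibroblast markers, of which 3 were tested, summed to 5.06 to 6.39 CPM in LBP and 6.37 to 6.63 CPM in vehicle libraries, and to 6.46 to 7.46 CPM in irradiated LBP and 5.40 to 6.85 CPM in irradiated vehicle libraries, with DCN at 0. Their part in the VIM difference was not tested.

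None of the 6 tested smooth muscle contractile genes passed the threshold. MYL9, a regulatory light chain of myosin, had 2.98 and 2.97 CPM in LBP libraries, against 3.90 and 3.23 CPM in vehicle libraries, a log2 fold change of -0.25 ± 0.18 (edgeR adjusted p = 0.58, 95% interval -0.65 to 0.14). Leaving out 1 library moved the MYL9 value between -0.38 and -0.13. TAGLN, or transgelin, differed by 0.30 ± 0.18 (edgeR adjusted p = 0.49), ACTA2, smooth muscle alpha-actin, by 0.22 ± 0.17, MYLK by 0.17 ± 0.15, CALD1, an actin-binding caldesmon, by 0.06 ± 0.12 and ACTG2 by 0.09 ± 0.83. The median log2 fold change of the contractile genes was 0.13, against 0.01 over all tested features.

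Among the 12 tested actin filament and myosin genes, CNN3 was the only one called, with 154 and 155 CPM in LBP libraries, against 207 and 199 CPM in vehicle libraries. Its log2 fold change of -0.39 ± 0.08 (edgeR adjusted p = 0.047, 95% interval -0.57 to -0.22) is a level 23.7% lower. TPM1, a tropomyosin, had 179.9 and 182 CPM with LBP, against 248 and 223 CPM with vehicle, and -0.38 ± 0.09 (edgeR adjusted p = 0.077). FILIP1L, a filamin A-interacting protein relative, had 7.91 and 7.66 CPM with LBP, against 18.2 and 12.6 CPM with vehicle, and -0.98 ± 0.26 (edgeR adjusted p = 0.13). The groups did not overlap for any of these 3 genes, but TPM1 and FILIP1L missed the threshold. Of the 36 tested members, 10 were lower and 11 higher without overlap in this comparison, and 15 overlapped. The share over all tested features was not counted, so lack of overlap is a description. NEXN, an actin-binding protein of the sarcomere, had 2.78 and 2.95 CPM with LBP, against 4.68 and 3.49 CPM with vehicle, and -0.50 ± 0.26 (edgeR adjusted p = 0.42, 95% interval -1.06 to 0.05). Leaving out 1 library moved the NEXN value between -0.71 and -0.29. For MYH9 (-0.02 ± 0.09, 95% interval -0.21 to 0.17), FLNA (0.03 ± 0.10, -0.19 to 0.25) and TAGLN2 (-0.05 ± 0.07, -0.21 to 0.11) the intervals held 0. The actin crosslinkers ACTN1 (0.03 ± 0.07) and ACTN4 (0.10 ± 0.08), the calponin CNN2 (-0.05 ± 0.08) and the tropomyosins TPM2 (0.23 ± 0.30) and TPM4 (0.08 ± 0.12) did not pass the threshold either.

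Of the 7 focal adhesion and LIM domain genes, TLN2 had 5.77 and 4.78 CPM in LBP libraries, against 11.3 and 9.61 CPM in vehicle libraries, without overlap and with a log2 fold change of -0.99 ± 0.16 (95% interval -1.34 to -0.63). On log2(FPKM + 0.1) the TLN2 difference was -1.498, and limma did not call it. Its more abundant relative TLN1 differed by -0.01 ± 0.07 (95% interval -0.15 to 0.14). FHL2, a LIM protein that is an SRF cofactor, had 90.5 and 96.6 CPM with LBP, against 63.5 and 72.6 CPM with vehicle, and 0.46 ± 0.14 (edgeR adjusted p = 0.19). DESeq2 called FHL2 higher (adjusted p = 0.048), as did edgeR with only these groups in the fit (adjusted p = 0.037). PDLIM5 differed by 0.38 ± 0.13 (edgeR adjusted p = 0.24). VCL, or vinculin (0.10 ± 0.12), ZYX, or zyxin (0.15 ± 0.10), and PDLIM7 (-0.08 ± 0.08) did not pass the threshold.

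None of the 6 SRF and YAP targets passed the threshold. SRF itself differed by 0.19 ± 0.12 (95% interval -0.07 to 0.46). CCN1 and CCN2, matricellular proteins that are widely used YAP readouts, differed by 0.19 ± 0.25 (-0.36 to 0.73) and 0.21 ± 0.28 (-0.40 to 0.82), and ANKRD1, a nuclear ankyrin protein, by 0.16 ± 0.25 (-0.39 to 0.71). AMOTL2, a YAP-binding angiomotin, differed by 0.16 ± 0.15 (-0.16 to 0.49) and AXL, a receptor kinase, by -0.20 ± 0.11 (edgeR adjusted p = 0.44). With 2 libraries a group these intervals leave room for changes of either sign.

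**Figure D2:**
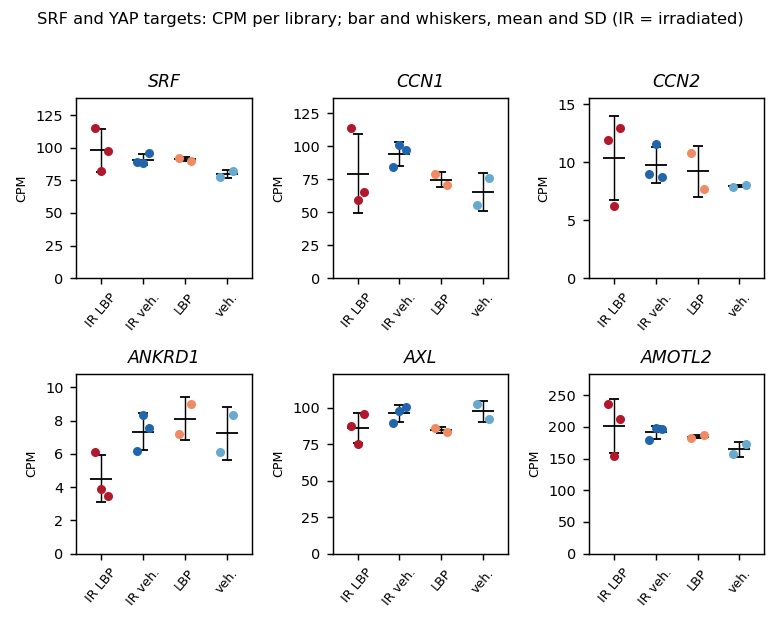
CPM per library of the 6 SRF and YAP targets in irradiated LBP, irradiated vehicle, LBP and vehicle cells, with a bar and whiskers for mean and SD. The irradiated LBP and irradiated vehicle groups overlap for every gene shown except ANKRD1, which in irradiated LBP lies between 3.47 and 6.12 CPM.

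In irradiated cells, irradiated LBP was set against irradiated vehicle, the comparison in which VIM, MYL9, NEXN and FILIP1L stand among the features with the lowest fold changes. EdgeR called 8 of 36 members lower (VIM, MYL9, TPM1, CNN3, FILIP1L, NEXN, TAGLN2 and TLN2) and none higher, against 1.57% of all tested features lower and 2.79% higher. Because some members may have been chosen on this comparison, nothing is read from that count. The median log2 fold change was -0.10 over the tested members and 0.01 over all tested features.

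VIM had 7.48, 8.35 and 9.997 CPM in irradiated LBP libraries, against 17.0, 17.4 and 17.3 CPM in irradiated vehicle libraries, a log2 fold change of -0.999 ± 0.12. MYL9 had 2.33, 1.94 and 2.49 CPM in irradiated LBP libraries, against 4.37, 4.34 and 3.96 CPM in irradiated vehicle libraries, a log2 fold change of -0.90 ± 0.15. FILIP1L had 6.08, 4.13 and 4.62 CPM in irradiated LBP libraries, against 14.6, 14.1 and 8.20 CPM in irradiated vehicle libraries, and -1.30 ± 0.22. Every irradiated LBP library was below every irradiated vehicle library for these genes. NEXN had 2.71, 2.13 and 1.65 CPM in irradiated LBP libraries, against 4.45, 5.08 and 3.43 CPM in irradiated vehicle libraries, with -0.99 ± 0.21. TLN2 had 5.26, 5.95 and 4.47 CPM in irradiated LBP libraries, against 9.24, 8.17 and 8.47 CPM in irradiated vehicle libraries, with -0.73 ± 0.13 in counts and -1.13 on log2(FPKM + 0.1). Neither gene's groups overlapped. Of the 36 tested members, 11 were lower and 4 higher without overlap in this comparison, and 21 overlapped. The share over all tested features was not counted here either.

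CNN3, TPM1 and TAGLN2, which are more abundant, had smaller fold changes. CNN3 had 145, 141 and 133 CPM in irradiated LBP libraries, against 208, 199 and 180.1 CPM in irradiated vehicle libraries, a log2 fold change of -0.49 ± 0.07. TPM1 had 164, 154 and 151 CPM in irradiated LBP libraries, against 255, 232 and 218 CPM in irradiated vehicle libraries, and -0.59 ± 0.07. TAGLN2 had 570.2, 584 and 597 CPM in irradiated LBP libraries, against 701, 677 and 719 CPM in irradiated vehicle libraries, and -0.26 ± 0.06. The irradiated LBP libraries were below all irradiated vehicle libraries for each of these 3 genes. Without irradiated vehicle replicate 1, 5 members were called in place of 8.

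The other 4 of the 5 most abundant members overlapped between these groups. MYH9 had 2379.7, 2062 and 2332 CPM in irradiated LBP libraries, against 2127, 2179 and 2141 CPM in irradiated vehicle libraries, and FLNA had 2662, 2218 and 2799 CPM in irradiated LBP libraries, against 2227, 2228 and 2404 CPM in irradiated vehicle libraries. TPM4 had 884, 779.99 and 637 CPM in irradiated LBP libraries, against 849, 835 and 834 CPM in irradiated vehicle libraries. TGFBI had 761, 768 and 843 CPM in irradiated LBP libraries, against 837, 752 and 785 CPM in irradiated vehicle libraries. The log2 fold changes were 0.07 for MYH9, 0.16 for FLNA and -0.13 for TPM4. TAGLN2 was just inside the threshold and MYLK, the myosin light chain kinase, just outside, with 20.9, 21.9 and 21.3 CPM in irradiated LBP libraries, against 16.2, 16.3 and 14.2 CPM in irradiated vehicle libraries. The MYLK difference of 0.46 ± 0.12 has the opposite sign to that of MYL9. MYLK was called higher by DESeq2, without the filter on low counts, with the replicate block, with only these groups in the fit and without either vehicle replicate, and DESeq2 also called TLN1 higher.

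**Figure D3:**
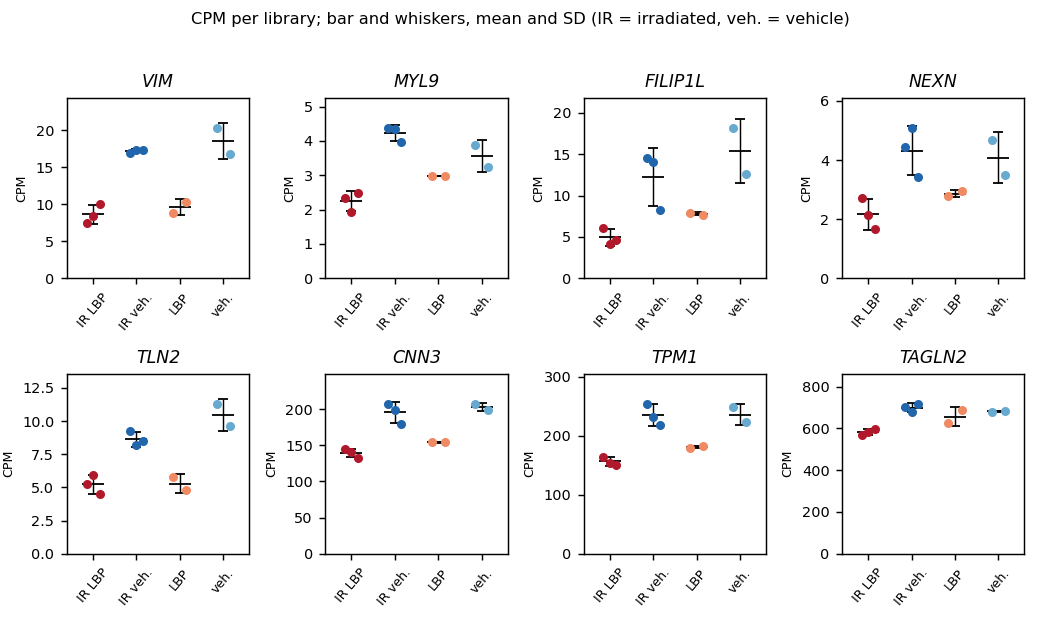
CPM per library of the 8 genes called lower in irradiated LBP cells, in irradiated LBP, irradiated vehicle, LBP and vehicle cells, with a bar and whiskers for mean and SD. VIM lies between 7.48 and 10.3 CPM in the 5 libraries with LBP and between 16.8 and 20.3 CPM in the 5 with vehicle.

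The SRF and YAP targets did not share a direction. ANKRD1 had 6.12, 3.91 and 3.47 CPM in irradiated LBP libraries, against 6.14, 8.34 and 7.54 CPM in irradiated vehicle libraries, and the groups were apart by only the gap between 6.12 and 6.14 CPM. CCN1 had 114, 58.9 and 65.3 CPM in irradiated LBP libraries, against 83.9, 101 and 97.1 CPM in irradiated vehicle libraries, which overlapped. The log2 fold change was -0.70 ± 0.21 for ANKRD1 and -0.24 ± 0.20 for CCN1. Irradiated LBP replicate 1 was the highest of its group for both, and without it the values were -0.997 for ANKRD1 and -0.60 for CCN1, both called lower by edgeR. With all libraries DESeq2 also called ANKRD1 lower. Irradiated LBP replicate 1 was the highest of the 3 for 21 of 36 members and for 31.6% of all tested features. Replicate 2 was the lowest for 22 of 36 members and for 31.7% of all tested features. The part of this in the results was not tested. SRF differed by 0.11, CCN2 by 0.10, AMOTL2 by 0.07 and AXL by -0.16.

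The 2 LBP comparisons share no library. The fold changes of the members are set side by side as a description, since values from both may have chosen some of them. A difference between the LBP effects in irradiated and in non-irradiated cells was tested as an interaction, which passed for none of the 36 members by edgeR, against 0.0135% of all tested features; 4 members (11.1%) had an unadjusted p under 0.05, as had 8.20% of all tested features. The interaction contains the comparison between the irradiated groups, on which some members may have been chosen, so the estimates of -0.05 for VIM, -0.64 ± 0.24 for MYL9 and -0.86 ± 0.33 for ANKRD1 are a description.

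**Figure D4:**
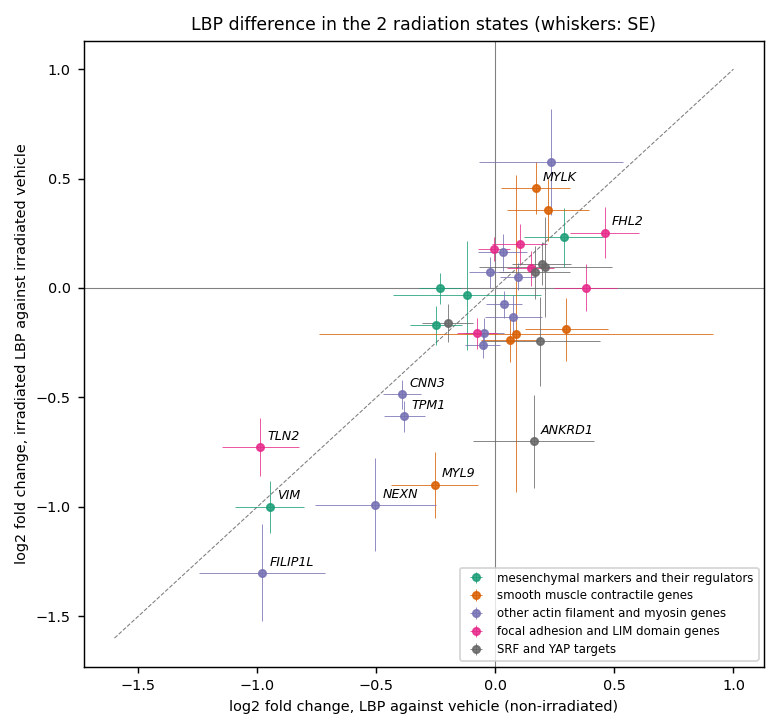
Log2 fold change of each tested member with its SE in irradiated LBP against irradiated vehicle (vertical) and in LBP against vehicle (horizontal), coloured by role, with a dashed line where both are equal. VIM lies close to the line at -0.999 and -0.95, and MYL9 and ANKRD1 lie below it.

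Radiation was compared within each pretreatment. The groups share libraries with the LBP comparisons, so their values are not separate evidence. EdgeR called none of the 36 members in irradiated vehicle against vehicle, where 0.405% of all tested features were lower and 0.0338% higher, and none in irradiated LBP against LBP, where 0.128% were lower and 0.0135% higher. An unadjusted p under 0.05 was found for 1 of 36 members and 6 of 36 members in the 2 comparisons, against 6.91% and 13.5% of all tested features. CCN1 was that gene in vehicle-treated cells, with 83.9, 101 and 97.1 CPM in irradiated vehicle libraries, against 55.2 and 75.6 CPM in vehicle libraries, a log2 fold change of 0.52 ± 0.23 (edgeR adjusted p = 0.71, 95% interval 0.02 to 1.02). With LBP, ANKRD1 had the lowest p, with 6.12, 3.91 and 3.47 CPM in irradiated LBP libraries, against 7.21 and 9.01 CPM in LBP libraries, a log2 fold change of -0.84 ± 0.23 (edgeR adjusted p = 0.24). Without irradiated LBP replicate 1 it was -1.13 (edgeR adjusted p = 0.0495). VIM differed by -0.11 in vehicle-treated and -0.16 in LBP-treated cells, and TLN2 by -0.28 and -0.02.

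**Figure D5:**
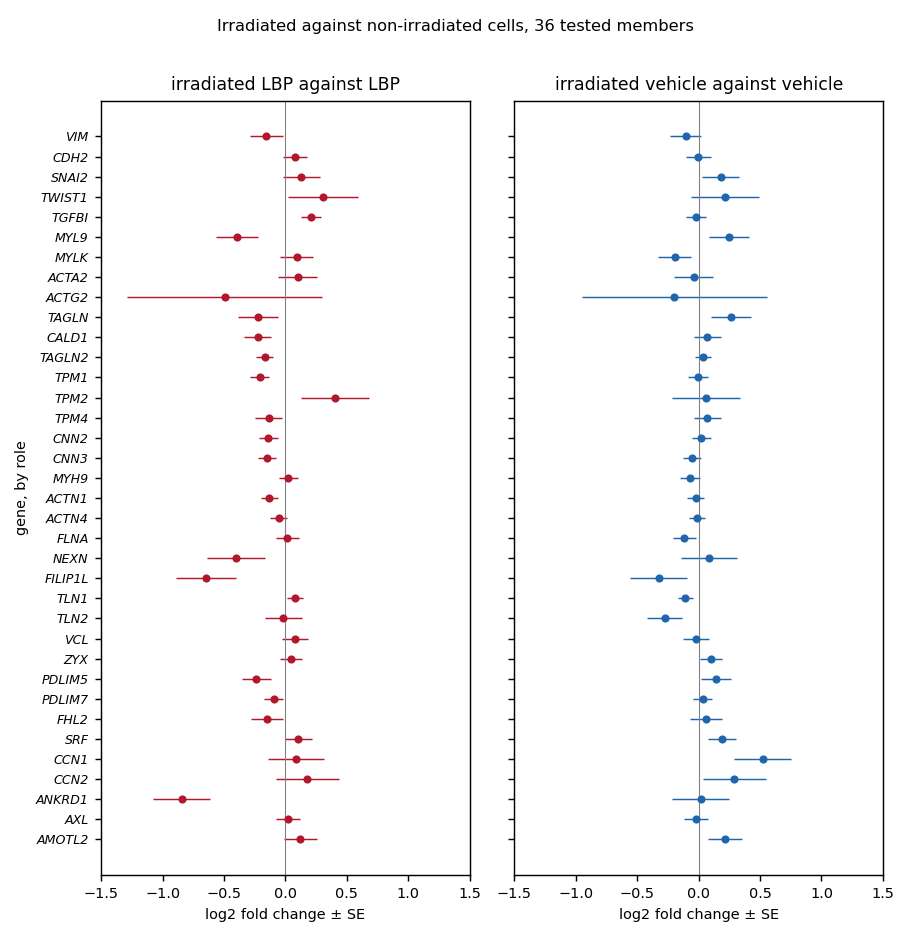
Log2 fold change with SE of the 36 tested members in irradiated LBP against LBP (left) and irradiated vehicle against vehicle (right), by role. ANKRD1 at -0.84 lies farthest from 0 on the left and CCN1 at 0.52 on the right.

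Genes of the same pathways outside the 40 gave few calls in LBP against vehicle. Their lists were also chosen with earlier results of these data known. The counts of calls and the adjusted p-values given for them, in both LBP comparisons, are therefore a description. EdgeR called 2 of 18 Hippo pathway genes lower, against 0.264% of all tested features: AMOT, a YAP-binding angiomotin, with 46.1 ± 0.46 CPM in LBP cells and 75.7 ± 8.2 CPM in vehicle cells (SD, n = 2 each; log2 fold change -0.71 ± 0.12, adjusted p = 0.014), and WWC1, the KIBRA scaffold (-0.37 ± 0.08, adjusted p = 0.047). Among the TGF-beta and mesenchymal genes, FN1, fibronectin, fell (log2 fold change -0.80 ± 0.16, edgeR adjusted p = 0.039). None of 17 other YAP targets, 17 other actin, tropomyosin and myosin genes, 10 intermediate filament genes or 17 epithelial junction genes was called. In irradiated LBP against irradiated vehicle, edgeR called 4 of 18 Hippo genes (NF2, STK3, WWC1 and AMOT) lower, against 1.57% of all tested features. Of the 17 other YAP targets, IGFBP3 and MYOF were higher and FJX1 lower, without a shared direction. Among the intermediate filament genes edgeR called KRT18, a simple epithelial keratin, lower (-0.36), and among the epithelial junction genes DSG3, a desmosomal cadherin, higher (0.43). MYOCD, the SRF coactivator myocardin, had no count in any LBP or irradiated LBP library, 6, 15 and 5 counts in irradiated vehicle libraries and 5 and 15 in vehicle libraries, at least 2.49-fold lower in irradiated LBP against the limit of 3 counts per library. In both radiation comparisons edgeR called none of these lists' genes.

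Overlapping genes limit some values. In GENCODE on GRCh38 VIM (chr10:17228259-17237593, plus strand) has antisense genes, and FILIP1L (chr3:99830141-100114513, minus strand) lies within CMSS1 on the other strand; without the counting's strand setting, reads of each pair cannot be told apart. CMSS1 averaged 58.9 ± 4.3 CPM in irradiated LBP and 69.8 ± 3.8 CPM in irradiated vehicle cells (SD, n = 3 each), and 70.1 ± 5.3 CPM in LBP and 67.9 ± 6.7 CPM in vehicle cells (SD, n = 2 each). The actins ACTA2 and ACTG2 are near-identical, so reads could be split between them. MYL9 averaged 0.990 ± 0.20 FPKM in irradiated LBP and 1.48 ± 0.04 FPKM in irradiated vehicle cells, and 0.990 ± 0.10 FPKM in LBP and 1.48 ± 0.23 FPKM in vehicle cells. On log2(FPKM + 0.1) its LBP difference was -0.55 in irradiated and -0.54 in non-irradiated cells, where the count fit gave -0.90 and -0.25.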

How the data were processed

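Members and lists were chosen with earlier results of these data known. HISAT2 and the genome build GRCh38 come from the submitters' processing notes, where neither has a version; the tool that counted reads, its annotation and its strand setting are not stated. Whole-number counts per gene were used as deposited by the authors. FPKM, scaled by length and library size, were likewise deposited by the authors. Of counts from 1 to 10, 59.7% were even, so both mates of a read pair may have been counted.

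Samples were grouped from their labels. Counts were tested with edgeR 4.0.16 (R 4.3.3), after filterByExpr (minimum count 10) and TMM scaling, by glmQLFit and glmQLFTest with 1 mean per group over all 10 libraries. Benjamini-Hochberg adjustment ran over 14799 features, with calls under 0.05. Values in every library are given for VIM, MYL9, NEXN and FILIP1L, for members called in a comparison other than that between the irradiated groups, and for the 5 with the highest mean FPKM; TPM1, FHL2, MYLK, ANKRD1 and CCN1 were added after their values were seen. An adjusted p with no tool named is from edgeR. Alternatives used DESeq2 1.42.0 and limma 3.58.1. Promoters were matched by symbol. The fit was tested on simulated data. Replicates differed beyond counting noise (chi-square per degree of freedom 10.1 to 34.5). Some genes of the pathway lists are not reported here.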

Additional observations from a re-analysis of the deposited data

How the results depend on the processing

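Each comparison was refitted under 18 alternatives (17 for the interaction, where fitting only the groups compared gives none): other scalings, DESeq2, no filter, only the groups compared, a replicate block, limma on log2(FPKM + 1) and log2(FPKM + 0.1), and leaving out each library. In LBP against vehicle, edgeR called 3 members lower. DESeq2 called 6 and the fit with only the groups compared 5, each with FHL2 higher and the others lower. The replicate block called 5 and limma 1 and 1, all lower. Leaving out 1 library gave 0 to 3 calls there, 0 without vehicle replicate 1. VIM kept its call in 16 of 18 alternatives, TLN2 in 13 and CNN3 in 9. In irradiated LBP against LBP, DESeq2 called 1 member (ANKRD1, adjusted p = 0.024), and leaving out a library gave 0 to 1. In irradiated LBP against irradiated vehicle, limma called 4 and 4, DESeq2 11 and leaving out a library gave 5 to 9, against 8. The DESeq2 calls included MYLK and TLN1 as higher. VIM, TPM1, CNN3 and FILIP1L kept their call as lower in all 18, MYL9 in 16, TLN2 in 15, NEXN in 13 and TAGLN2 in 11. The cause of the differences between settings was not tested. Values from both LBP comparisons may have chosen some members, so the counts of kept calls are a description. For same-numbered libraries, deviations of log2 CPM from the group mean correlated at -0.077 to 0.11 across groups. With 2 libraries a group the deviations mirror each other, so LBP against vehicle gave -0.041 for both replicates. The labels number repeated experiments within a group without tying a number to a shared culture or day. For that reason the libraries were not treated as paired. Some fold changes near 0 changed sign. With limma on log2(FPKM + 1) and log2(FPKM + 0.1), FLNA in LBP against vehicle was -0.022 and -0.022, NEXN in irradiated vehicle against vehicle -0.0044 and -0.0054, and TLN2 in irradiated LBP against LBP 0.050 and 0.12. With log2(FPKM + 1), MYL9 in irradiated vehicle against vehicle was -0.00062 and the VIM interaction 0.0037. In irradiated LBP against LBP, the replicate block gave -0.042 for FLNA and 0.041 for TLN2, and upper quartile scaling 0.0046 for TLN2. Leaving out 1 library gave ranges in LBP against vehicle of -0.0052 to 0.059 for FLNA, -0.084 to 0.026 for MYH9, -0.12 to 0.0033 for TAGLN2 and -0.015 to 0.15 for TPM4. In irradiated vehicle against vehicle they were -0.098 to 0.0034 for CNN3, -0.11 to 0.30 for NEXN, -0.092 to 0.058 for TGFBI and -0.22 to 0.029 for VIM. In irradiated LBP against LBP they were -0.048 to 0.11 for FLNA, -0.029 to 0.085 for MYH9 and -0.15 to 0.13 for TLN2, in irradiated LBP against irradiated vehicle -0.051 to 0.041 for TGFBI, and for the VIM interaction -0.18 to 0.069.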
